A study of Homo sapiens with 15 samples.

Results

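The clustered histone genes were taken as all gene symbols in the count files that begin with HIST1H, HIST2H, HIST3H or HIST4H, with the transcript row of the highest total kept for each symbol. This gave 73 of the 25681 symbols. They comprised 6 genes of linker histone H1, 18 of H2A, 20 of H2B, 14 of H3 and 15 of H4. By cluster, 56 belonged to HIST1 on chromosome 6, 13 to HIST2 and 3 to HIST3 on chromosome 1, and 1 to HIST4 on chromosome 12. Symbols are those of the files. The current symbols differ, and HIST1H2BK is now H2BC12.

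RNA-seq was carried out in HSSYII cells, an established line from synovial sarcoma in which SS18 is fused to SSX1, in 5 groups of 3 libraries. In the degrader experiment, cells received the vehicle DMSO or 100 nM dBRD9-A, a compound that links a ligand of the BRD9 bromodomain to a cereblon ligand and so leads to destruction of BRD9 protein, and RNA was taken after 6 hr. In the knockdown experiment, cells were infected at a multiplicity of infection of 1.0 with lentivirus that expressed a GFP marker and a hairpin against Renilla luciferase (shRenilla, the control), or either of 2 hairpins against the fusion transcript (shSS18-SSX1-1 and shSS18-SSX1-2), and RNA was taken after 96 hr without drug selection, so uninfected cells may be included. All groups are the same unsorted line, all libraries of the knockdown experiment share infection with virus, and nothing in the sources used here says whether the 3 libraries of a group came from separate cultures. The p-values therefore reflect only how far the libraries of a group spread, and that spread may be technical. The question put to the histone genes was whether they moved after loss of BRD9 protein or of the fusion.

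Histones H2A, H2B, H3 and H4 form the core around which DNA is wrapped in the nucleosome, and H1 binds the linker DNA between nucleosomes. Most clustered histone genes are switched on together when cells replicate DNA in S phase, under the coactivator NPAT, which is activated by cyclin E and CDK2. Their mRNAs are not polyadenylated as a rule. They end in a short stem-loop that is bound by SLBP and cut by a complex that contains the U7 small nuclear RNA, and they are degraded when replication ends. Some of the clustered genes, HIST1H1C and HIST1H2BK among them, are known to make polyadenylated mRNA as well, which is not tied to S phase in the same way. Selection of poly(A)-tailed RNA before library construction is neither stated nor denied by the sources used here. A count therefore cannot be split into stem-loop and polyadenylated mRNA, and a low count may reflect how the library was made.

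The stem-loop was read from the GRCh37 genome after the stop codon of each gene, because it is the element that sets these mRNAs apart. Of the 73 members, 70 were located on GRCh37 in the GENCODE annotation, 53 of them as genes of a single exon, and 67 were annotated there as protein-coding. All 67 held the 16-base histone stem-loop within 150 bases after the stop codon, between 23 and 68 bases away with a median of 36. The same search in the 4077 other protein-coding genes of chromosomes 1, 6 and 12 gave 2 matches (0.0491%), EIF3I and the histone gene H3-7. The members carried 10 forms of the element. The 3 most frequent are printed below as DNA of the transcribed strand's sense, 5′ to 3′, each beside a member that carries it, with the arms of the stem in capitals and the loop in lower case.
HIST1H1C: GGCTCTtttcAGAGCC
HIST1H2BK: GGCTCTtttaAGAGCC
HIST1H4C: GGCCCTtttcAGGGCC
The first form was found after 39 members, among them HIST1H1C, HIST3H2A, HIST2H2BE, HIST1H2AC, HIST1H2BN, HIST1H3H and HIST1H3J. The second was found after 9 members, including HIST1H2BK and HIST1H2BD, and the third after 9 others, including HIST1H4C. On GRCh37 the element of HIST1H1C lay at chr6:26055972-26055987 on the minus strand, that of HIST1H2BK at chr6:27114145-27114160 on the minus strand and that of HIST1H4C at chr6:26104545-26104560 on the plus strand. The 5 members that passed the test in the knockdown carried the first or the second form, as did members that did not pass it.

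In the knockdown experiment 5 of the 17 members tested were called higher, near the 22.5% of all genes called higher. The promoters of these 5 members are shown to describe their sequence, not as those of a group that moved together. Their 180 bases upstream of the transcription start, from RefSeq on GRCh38.p14, are printed 5′ to 3′ on the strand of the gene. Capitals mark the octamer ATTTGCAT (or ATGCAAAT on the other strand), the CCAAT box (or ATTGG) and the TATA box searched as TATAAA.
HIST1H2BK (chr6:27146859-27147038, minus strand): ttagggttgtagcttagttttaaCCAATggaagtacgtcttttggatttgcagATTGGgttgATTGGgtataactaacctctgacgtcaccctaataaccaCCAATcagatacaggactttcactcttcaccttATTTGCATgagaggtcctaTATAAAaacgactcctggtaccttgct
HIST2H2BE (chr1:149886683-149886862, minus strand): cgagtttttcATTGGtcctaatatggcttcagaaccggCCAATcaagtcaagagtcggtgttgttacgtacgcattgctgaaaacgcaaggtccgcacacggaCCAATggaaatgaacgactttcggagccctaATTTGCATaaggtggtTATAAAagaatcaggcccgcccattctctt
HIST1H2AC (chr6:26123992-26124171, plus strand): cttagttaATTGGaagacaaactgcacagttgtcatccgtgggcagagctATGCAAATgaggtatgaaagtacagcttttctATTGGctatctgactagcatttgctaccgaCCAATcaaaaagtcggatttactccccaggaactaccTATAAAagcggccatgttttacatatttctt
HIST1H1C (chr6:26056471-26056650, minus strand): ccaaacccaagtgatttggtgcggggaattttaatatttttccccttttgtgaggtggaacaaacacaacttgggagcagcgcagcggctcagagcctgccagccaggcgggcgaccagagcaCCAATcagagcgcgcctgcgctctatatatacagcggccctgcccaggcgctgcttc
HIST1H2BN (chr6:27838389-27838568, plus strand): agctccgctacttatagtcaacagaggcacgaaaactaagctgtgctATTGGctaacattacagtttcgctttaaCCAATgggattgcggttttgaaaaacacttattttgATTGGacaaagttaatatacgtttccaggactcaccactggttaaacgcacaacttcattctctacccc
In these windows the octamer was found upstream of HIST1H2BK, HIST2H2BE and HIST1H2AC. A promoter entry was matched for 65 members, and the motifs were counted on both strands in the 250 bases upstream of the start. The octamer was found in 26 of the 65 (40%) beside 1.663% of all 27305 promoters, and within the members it was found in 14 of 18 H2B and 11 of 16 H2A genes but in 1 of 12 H3 genes and in none of 6 H1 and 13 H4 genes. CCAAT was found in 55 of 65 (84.615%) beside 33.038% of all promoters, and TATAAA in 43 of 65 (66.154%) beside 11.133%. Among H4 genes CCAAT was found in 3 of 13, against all 6 H1, 16 H2A, 18 H2B and 12 H3 genes. A match describes the letters alone, and several H2A and H2B genes share 1 promoter region read in opposite directions, so the counts are not independent.

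Libraries held 18580419 to 27031647 counts, and the 73 members together 24099 of 339690267 counts (0.00709%). Levels are given as CPM, the count scaled to 1000000 counts of library total after TMM adjustment over all 15 libraries, and since CPM is not divided by transcript length, the order of genes below is an order of counts. Among the members, 13 were listed at 0 in every library, which allows a level of up to 0.111 to 0.161 CPM in a library (3 counts, counting error only). Those 13 included HIST2H2AA3, HIST2H2AA4, HIST2H3A, HIST2H3C, HIST2H4A and HIST2H4B. In these 6 members every 75-base window from the start codon to the end of the stem-loop is found in another gene as well. How reads that match several places were counted is not given in the sources used here. Another 39 members had 1 to 121 counts over all libraries and 7.12% of the members' counts, and were tested in neither experiment. Of these, HIST2H2BC passed the filter over all 15 libraries and entered only the fit that compares the experiments. In all, 21 members passed the filter on low counts in at least 1 experiment, 13 of them in both, 4 in the degrader experiment alone (HIST1H1E, HIST1H3J, HIST1H4C and HIST2H2AC) and 4 in the knockdown experiment alone (HIST1H2AG, HIST1H3D, HIST1H3E and HIST1H3G).

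A few members supplied most of the histone counts. HIST1H2BK, which encodes an H2B, had 9603 counts over the 15 libraries, HIST1H1C, a linker histone gene, had 3321, and HIST3H2A, an H2A gene of the HIST3 cluster, had 1848. They were followed by HIST2H2BE with 1590, HIST1H2BD with 1329, HIST1H2AC with 1267 and HIST1H4C with 765 counts, and the next, HIST1H3H, HIST1H2BN and HIST1H3J, had 296, 288 and 230. Summed over all members, the level was 48.6, 47.6 and 54.7 CPM in DMSO and 54.5, 55.2 and 52.0 CPM in dBRD9-A. It was 49.1, 80.9 and 65.7 CPM in shRenilla, 94.8, 95.8 and 109.9 CPM in shSS18-SSX1-1 and 78.6, 98.7 and 84.9 CPM in shSS18-SSX1-2. The degrader groups overlapped, whereas 5 of the 6 fusion hairpin libraries lay above every shRenilla library and 1, shSS18-SSX1-2 replicate 1, lay just under shRenilla replicate 2.

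**Figure D1:**
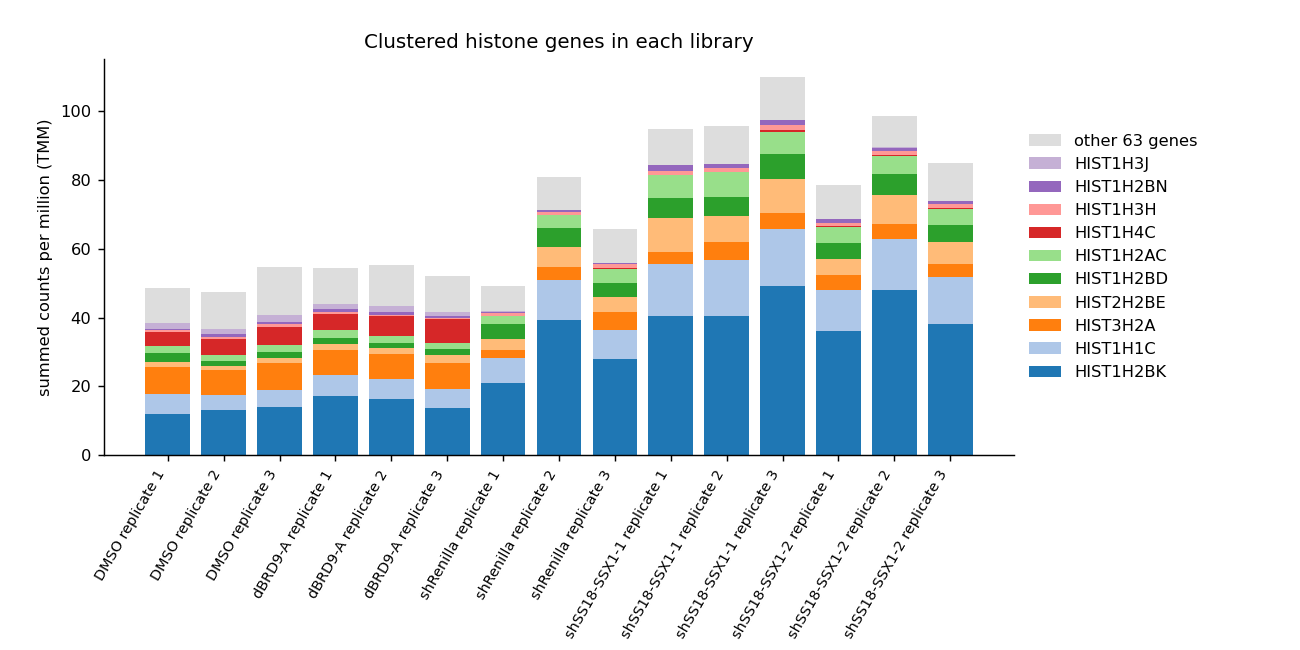
Summed level of the 73 clustered histone genes in each of the 15 libraries, in CPM on a linear axis from 0, stacked as the 10 members with the most counts and the other 63 together. The sum runs from 47.6 to 54.7 CPM in DMSO and from 94.8 to 109.9 CPM in shSS18-SSX1-1, and HIST1H4C is a visible band in the 6-hr libraries alone.

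The control groups already differed in which histone genes they counted. HIST1H4C, an H4 gene, stood at 4.18, 4.67 and 5.24 CPM in DMSO and at 0.151, 0.179 and 0.290 CPM in shRenilla, and all 6 libraries of the 6-hr experiment lay above all 9 of the 96-hr experiment. HIST1H3J, an H3 gene, was high in the same libraries, with 1.62, 1.54 and 1.97 CPM in DMSO against 3, 0 and 1 counts in the shRenilla libraries. In the other direction, HIST1H2BK was at 12.0, 13.1 and 14.0 CPM in DMSO and at 20.9, 39.4 and 27.9 CPM in shRenilla. Of the 22 members that passed the filter over all 15 libraries, 4 were higher in every shRenilla than in every DMSO library (HIST1H1C, HIST1H2BD, HIST1H2BK and HIST2H2BE) and 6 were lower (HIST1H1E, HIST1H2BH, HIST1H3J, HIST1H4C, HIST2H2AC and HIST3H2A), beside 28.6% and 27.8% of all genes. The 11 members with known polyadenylated forms summed to 30.6 to 33.6 CPM in DMSO and 41.3 to 71.3 CPM in shRenilla, and the other 62 to 15.4 to 21.1 and 7.74 to 9.82 CPM. Single members departed from these sums. HIST3H2A, which is among the 11, had a mean of 7.54 CPM in DMSO and 3.77 CPM in shRenilla. Of the other 62, HIST1H4C (means 4.69 and 0.207 CPM) and HIST1H3J (1.71 and 0.0539 CPM) made up much of the difference. The list of 11 was drawn up with earlier results of these data known, and a split by poly(A) form was not tested. RNAs that lack a poly(A) tail, such as RMRP and small nuclear RNAs, were also lower in shRenilla, with a summed level of 8.49 to 12.1 CPM in DMSO and 5.25 to 6.58 CPM in shRenilla, and their part in the result was not tested. Of these RNAs 1 rose and 1 fell among 5 tested with dBRD9-A, beside 17.7% and 18.2% of all genes. The 1 tested in the knockdown, SCARNA12, fell, beside 22.1% of all genes. In shSS18-SSX1-1 and shSS18-SSX1-2 these RNAs summed to 3.98 to 5.19 and 4.49 to 5.27 CPM, lower than in shRenilla. The other 62 members summed to 11.6 to 13.3 and 10.0 to 11.6 CPM there, higher than in shRenilla. The control groups differ in time, virus and experiment, which cannot be told apart, so no test of the difference between them is given. HIST1H4C overlaps HIST1H2BC on the opposite strand and HIST1H3J overlaps the H2A gene H2AC17 on the same strand in the GENCODE annotation, and whether counting used strand is not given in the sources used here.

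**Figure D2:**
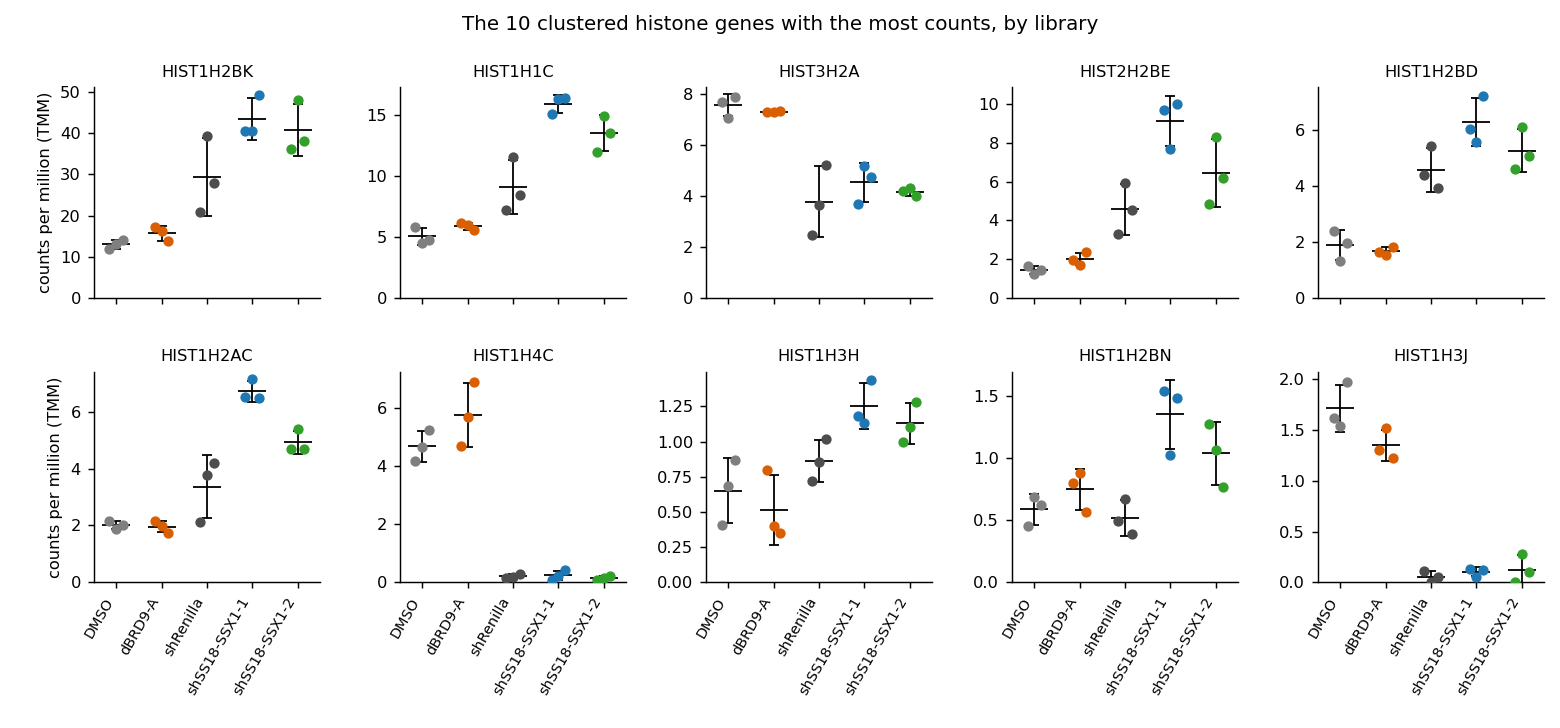
Level of the 10 members with the most counts in each library, in CPM on the scale shared by all 15 libraries, as points for the libraries with the mean and SD of each group of 3. HIST1H4C and HIST1H3J are high in the 6-hr groups and near 0 in the 96-hr groups, while HIST1H1C and HIST1H2AC are highest in the fusion hairpin groups.

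After knockdown of the fusion 5 of the 17 members tested were higher and 0 lower. HIST1H1C, HIST1H2AC, HIST1H2BN, HIST2H2BE and HIST1H2BK were higher by 1.42-fold to 2.27-fold in the mean of both hairpins over shRenilla (edgeR's quasi-likelihood test, Benjamini-Hochberg adjusted p under 0.05 over all 14269 genes tested). In the same comparison 22.5% of all genes were called higher and 22.1% lower, so a count of 5 higher is near that of genes in general. Of the 5, HIST1H2BK did not reach 1.5-fold and the other 4 passed it, beside 12.5% of all genes called higher past it. No member was lower, also at an unadjusted p under 0.05, where 8 were higher and 0 lower, and DESeq2 and limma with voom each called 5 higher and 0 lower. The share of all genes at the unadjusted threshold is not given, so the count of 8 is no result about the members. The fold was positive in 15 of the 17, the exceptions being HIST1H2BC and HIST1H3G, with a median log2 fold change of 0.51 beside −0.01 over all genes tested. The filter on low counts can be passed through the libraries of any group. Some low members, such as HIST1H2BG with 9 counts in each shRenilla library, therefore entered through the hairpin libraries, where they were higher. The count of 15 and the median of 0.51 are in part set by this filter and lend no support to a direction. HIST1H2BN, among the 5 called, also passed the filter only with the hairpin libraries, so the count of 5 was favoured by it.

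Among the linker histones HIST1H1C alone was tested in the knockdown. It stood at 7.25, 11.6 and 8.47 CPM in shRenilla, at 15.04, 16.3 and 16.4 CPM in shSS18-SSX1-1 and at 12.0, 14.9 and 13.6 CPM in shSS18-SSX1-2. Every fusion hairpin library lay above every shRenilla library, and the groups did not overlap. The log2 fold change of the mean of both hairpins was 0.68 ± 0.13 (SE), a 1.6-fold rise (edgeR adjusted p = 0.00086).

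Of the H2A genes, HIST1H2AC stood at 2.11, 3.77 and 4.21 CPM in shRenilla, at 6.52, 7.13 and 6.49 CPM in shSS18-SSX1-1 and at 4.68, 5.40 and 4.67 CPM in shSS18-SSX1-2. Here too all 6 fusion hairpin libraries lay above the 3 controls, with shSS18-SSX1-1 above shSS18-SSX1-2. The log2 fold change was 0.78 ± 0.17 (SE), or 1.72-fold (edgeR adjusted p = 0.00238). HIST3H2A, of the separate HIST3 cluster, stood at 2.45, 3.63 and 5.22 CPM in shRenilla against 3.67, 5.19 and 4.72 CPM and 4.18, 4.29 and 4.004 CPM in the fusion hairpins. Its groups overlapped, with the widest spread in shRenilla, and its log2 fold change of 0.21 ± 0.19 (SE) did not pass the test (edgeR adjusted p = 0.408).

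The H2B genes gave 3 of the 5 calls. HIST1H2BK stood at 20.9, 39.4 and 27.9 CPM in shRenilla, at 40.5, 40.5 and 49.3 CPM in shSS18-SSX1-1 and at 36.1, 48.0 and 38.1 CPM in shSS18-SSX1-2. The groups overlapped, since shRenilla replicate 2 lay above 2 libraries of shSS18-SSX1-2, and the log2 fold change was 0.51 ± 0.16 (SE), or 1.42-fold (edgeR adjusted p = 0.0197). The call was lost without shRenilla replicate 1 (log2 fold change 0.33, edgeR adjusted p = 0.0742) and without shRenilla replicate 3 (edgeR adjusted p = 0.0641). HIST2H2BE, an H2B gene of the HIST2 cluster, stood at 3.28, 5.92 and 4.55 CPM in shRenilla, at 9.69, 7.67 and 10.02 CPM in shSS18-SSX1-1 and at 4.86, 8.31 and 6.16 CPM in shSS18-SSX1-2. The first hairpin lay wholly above the control and the second overlapped it, and the log2 fold change of their mean was 0.75 ± 0.19 (SE), or 1.68-fold (edgeR adjusted p = 0.00659). Between its start codon and the end of its stem-loop, 27.7% of the 75-base windows of HIST2H2BE are also found in another gene, so part of its counts is uncertain. Its transcript spans 2224 bases, most of them outside that stretch, so 27.7% is not the uncertain share of its counts. The same measure was 11.4% for HIST1H2BN and 6.96% for HIST1H2BK. HIST1H2BN had the highest fold of the 5 and the fewest counts, with 13, 15 and 8 in shRenilla, 34, 19 and 36 in shSS18-SSX1-1 and 28, 27 and 15 in shSS18-SSX1-2. It passed the filter on low counts only with the hairpin libraries, where it was higher, so its place among the 5 was favoured by the filter. On the CPM scale its groups did not overlap, and its log2 fold change was 1.18 ± 0.26 (SE), or 2.27-fold (edgeR adjusted p = 0.00242). HIST1H2BD stood at 4.38, 5.43 and 3.92 CPM in shRenilla against 6.02, 5.56 and 7.22 CPM and 4.59, 6.10 and 5.08 CPM in the hairpins, and its log2 fold change of 0.32 ± 0.14 (SE) did not pass (edgeR adjusted p = 0.0869).

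None of the 4 H3 genes tested passed, nor did the single H4 gene. HIST1H3H stood at 0.717, 0.852 and 1.02 CPM in shRenilla, at 1.18, 1.13 and 1.44 CPM in shSS18-SSX1-1 and at 1.00, 1.10 and 1.28 CPM in shSS18-SSX1-2. Its first hairpin lay above all controls, and its log2 fold change of 0.46 ± 0.20 (SE) did not pass (edgeR adjusted p = 0.0804). HIST1H4C and HIST1H3J did not pass the filter on low counts in this experiment, with 2 to 10 and 0 to 7 counts in a library. Across classes the summed H4 level was 0.793 to 1.64 CPM in shRenilla, 1.40 to 2.01 CPM in shSS18-SSX1-1 and 1.14 to 1.899 CPM in shSS18-SSX1-2, whereas that of H2B was 31.6 to 54.4, 57.9 to 71.7 and 49.9 to 66.2 CPM, so H2B genes made up most of the sum. In groups on the CPM scale, 4 of the 17 members lay higher in all 6 fusion hairpin libraries than in all 3 shRenilla libraries (HIST1H1C, HIST1H2AC, HIST1H2BG and HIST1H2BN), beside 21.6% of all genes, and 0 lay lower, beside 17.0%. Of the 4, HIST1H2BG and HIST1H2BN passed the filter on low counts only with the hairpin libraries, where they were higher. Their place in this count was thus favoured by the filter.

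The hairpins were also set against shRenilla one at a time, and since they share the same 3 control libraries their values are given side by side. With shSS18-SSX1-1, 7 of 17 members were higher and 0 lower (22% of all genes higher, 19.5% lower), namely HIST1H1C, HIST1H2AC, HIST1H2BN, HIST2H2BE, HIST1H2BK, HIST1H2BD and HIST1H3D. With shSS18-SSX1-2, 3 of 17 were higher and 0 lower (18.3% and 15.9%), namely HIST1H1C, HIST1H2BN and HIST1H2AC. HIST1H2BN, called with both hairpins, and HIST1H3D, called with the first, passed the filter on low counts only with the hairpin libraries, where their means were higher. Both counts of calls were thus favoured by the filter. At an unadjusted p under 0.05 the counts were 11 higher and 0 lower for the first hairpin and 5 and 0 for the second. The share of all genes at that threshold is not given, so these counts are no result about the members. DESeq2 called 6 and 4 higher, limma with voom 8 and 3, and each called 0 lower. The log2 fold change of HIST1H2AC was 1.01 with the first hairpin and 0.55 with the second, and that of HIST1H1C was 0.81 and 0.55. For HIST2H2BE it was 1.01, which passed (edgeR adjusted p = 0.00201), and 0.48, which did not (edgeR adjusted p = 0.11). The hairpins themselves differed in none of the 17 by edgeR, beside 0.119% of all genes higher and 0.028% lower with the second hairpin, with 0 calls by DESeq2 and by limma with voom. At an unadjusted p under 0.05 HIST1H2AC and HIST2H2BE were lower with the second hairpin, with differences of −0.46 ± 0.19 and −0.52 ± 0.21 (log2, SE), and the second hairpin had the lower fold in 15 of 17. The matching shares of all genes are not given, so neither count is a result about the members.

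**Figure D3:**
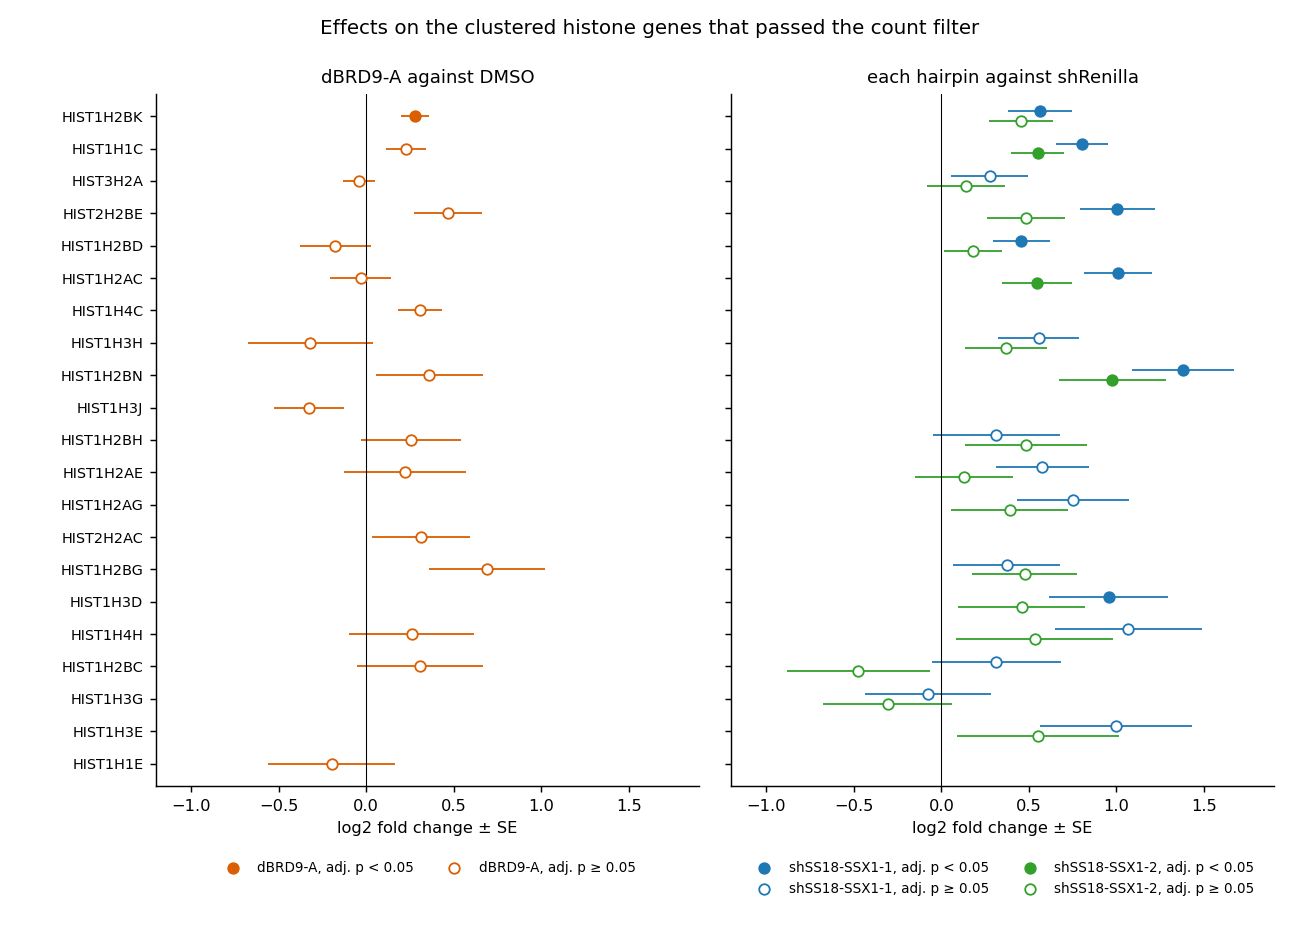
Log2 fold change with its SE for the 21 members tested in either experiment, with dBRD9-A against DMSO in one panel and each fusion hairpin against shRenilla in the other, filled where the edgeR adjusted p is under 0.05. HIST1H2BK is the one filled point for dBRD9-A, whereas 7 members are filled for shSS18-SSX1-1 and 3 for shSS18-SSX1-2.

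With dBRD9-A 1 of the 17 members tested moved. HIST1H2BK was higher, and by edgeR 0 members were lower, beside 17.7% of all 13652 genes called higher and 18.2% lower. No member was both called and past 1.5-fold, beside 2.23% of all genes called higher past it, and HIST1H2BG, with a log2 fold change of 0.69 ± 0.33 (SE), was past that fold without being called (edgeR adjusted p = 0.106). At an unadjusted p under 0.05, 4 members were higher and 0 lower, and DESeq2 and limma with voom each called 1 higher and 0 lower. The share of all genes at the unadjusted threshold is not given, so the count of 4 is no result about the members. The fold was positive in 11 members and negative in 6, with a median log2 fold change of 0.25 beside 0.01 over all genes. Here too the filter on low counts played a part. HIST1H2BG, with 7, 9 and 15 counts in DMSO, passed it only with the dBRD9-A libraries, where it had 16, 18 and 20. The members' median was 0.09 with a filter of at least 1 CPM in 3 libraries and −0.10 with no filter. The count of 11 and the median of 0.25 thus lend no support to a direction. Without DMSO replicate 1 the members' median was 0.04.

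HIST1H2BK stood at 12.0, 13.1 and 14.0 CPM in DMSO and at 17.1, 16.3 and 13.7 CPM in dBRD9-A. Of the treated libraries 2 lay above every control and the third lay within the controls. The log2 fold change was 0.28 ± 0.08 (SE), or 1.21-fold (edgeR adjusted p = 0.00651). Without dBRD9-A replicate 1 it was 0.22 and did not pass (edgeR adjusted p = 0.0735). When all 15 libraries shared 1 fit it was 0.27 and did not pass (edgeR adjusted p = 0.4).

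HIST2H2BE, HIST1H4C and HIST1H1C had positive folds that missed the threshold. HIST2H2BE stood at 1.66, 1.24 and 1.44 CPM in DMSO and at 1.94, 1.72 and 2.35 CPM in dBRD9-A. It was the single member of 17 that was higher in every treated library than in every control, beside 22.5% of all genes, and its log2 fold change was 0.47 ± 0.19 (SE, edgeR adjusted p = 0.0594). HIST1H4C stood at 4.18, 4.67 and 5.24 CPM in DMSO and at 4.71, 5.71 and 6.92 CPM in dBRD9-A. The groups overlapped, and its log2 fold change was 0.31 ± 0.13 (SE, edgeR adjusted p = 0.0579). HIST1H1C stood at 5.84, 4.54 and 4.76 CPM in DMSO and at 6.10, 5.95 and 5.57 CPM in dBRD9-A, with overlap between the groups and a log2 fold change of 0.23 ± 0.11 (SE, edgeR adjusted p = 0.115). Both HIST2H2BE and HIST1H4C lay so near the threshold that other scalings carried them past it (edgeR with upper quartile factors gave adjusted p = 0.0493 and adjusted p = 0.0419).

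The 4 H2A genes tested had a median log2 fold change of 0.10, and none passed. HIST2H2AC had 0.32 ± 0.28 and HIST1H2AE 0.22 ± 0.35 (log2, SE), and the 2 with the most counts lay near 0. HIST3H2A stood at 7.68, 7.06 and 7.89 CPM in DMSO and at 7.28, 7.27 and 7.31 CPM in dBRD9-A, and its log2 fold change was −0.04 ± 0.09 (SE, edgeR adjusted p = 0.774). HIST1H2AC stood at 2.16, 1.88 and 2.02 CPM in DMSO and at 2.15, 2.00 and 1.74 CPM in dBRD9-A, with a log2 fold change of −0.03 ± 0.17 (SE, edgeR adjusted p = 0.91). Both pairs of groups overlapped. HIST1H3J stood at 1.62, 1.54 and 1.97 CPM in DMSO and at 1.30, 1.52 and 1.22 CPM in dBRD9-A. It was the single member lower in every treated library than in every control, beside 23.3% of all genes, and its log2 fold change of −0.32 ± 0.20 (SE) did not pass (edgeR adjusted p = 0.216). HIST1H3H and HIST1H2BD had negative folds as well, of −0.32 ± 0.36 and −0.18 ± 0.20 (log2, SE), and HIST1H2BN a positive one of 0.36 ± 0.31, none of which passed. Leaving out 1 library moved HIST1H3H between −0.77 and −0.09 and HIST1H2BD between −0.39 and 0.03, so the direction of HIST1H2BD turned without DMSO replicate 1.

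The degrader and knockdown effects were compared in 1 fit of all 15 libraries, as the log2 fold change with dBRD9-A less that in the knockdown. The SE and adjusted p of the difference rest on a spread pooled over both experiments. Its common biological CV was 7.08%, beside 2.78% in the degrader and 8.91% in the knockdown experiment alone. Of 22 members tested, 1 differed, HIST1H2AC, and 0 differed the other way (edgeR; 19.0% of all 14560 genes had a lower and 17.5% a higher dBRD9-A effect). HIST1H2AC, with −0.03 in the former and 0.78 in the latter, had a difference of −0.84 ± 0.27 (log2, SE, edgeR adjusted p = 0.0204). Leaving out dBRD9-A replicate 3 (edgeR adjusted p = 0.0557) or DMSO replicate 1 (edgeR adjusted p = 0.0574) took the call away. For the other members called in either experiment the difference did not pass by edgeR, with −0.47 for HIST1H1C (adjusted p = 0.0699), −0.84 for HIST1H2BN (adjusted p = 0.111), −0.25 for HIST1H2BK (adjusted p = 0.421) and −0.30 for HIST2H2BE (adjusted p = 0.527). At an unadjusted p under 0.05, 2 members were lower and 0 higher, and DESeq2 and limma with voom each called 1 lower and 0 higher. The share of all genes at the unadjusted threshold is not given, so the count of 2 is no result about the members. The members' median difference was −0.33. The experiments differ in time, 6 hr against 96 hr, and in virus, which cannot be told apart from the agent.

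Genes that work with the histones were described from lists of known function, to be read beside the 22.5% of all genes called higher and 22.1% lower in the knockdown and the 17.7% and 18.2% with dBRD9-A. Of 38 DNA replication genes of S phase, 37 fell and 0 rose in the knockdown, with a median log2 fold change of −0.67. Of the 17 clustered histone genes tested in the same libraries 5 rose, near the 22.5% of all genes, and 0 fell. Among these 5, 4 have known polyadenylated forms, and HIST1H4C and HIST1H3J were too low to be tested there. Examples of the fallen replication genes were GINS1 (−0.85) and CDC45 (−0.99), parts of the replicative helicase, and the sliding clamp PCNA (−0.72). All 21 mitosis genes fell, with a median of −0.72, among them TOP2A (−0.87), AURKA (−0.80) and KIF11 (−0.81). With dBRD9-A, 21 of the 38 replication genes rose and 3 fell, with a median of 0.09 and no fold past 1.5, LIG1 (0.37), ORC1 (0.31) and ORC6 (0.28) among the risen. Of the 21 mitosis genes 1 rose and 6 fell, CENPF (−0.27), BUB1 (−0.23) and CENPE (−0.18) among the fallen.

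Factors that make and mature histone mRNA moved in the knockdown as well. Of the 17 transcription and 3′ processing factors, 10 fell and 0 rose, among them E2F1 (−0.65), CDK2 (−0.56) and cyclin E2 (CCNE2, −0.68), and SLBP, which binds the stem-loops printed above, was among the fallen at −0.41 (edgeR adjusted p = 0.0007). With dBRD9-A 5 of 17 rose and 3 fell, beside 17.7% of all genes called higher and 18.2% lower, so these counts are no result about the factors. CCNE2 (0.37), CCNE1 (0.33) and E2F1 (0.22) were among the risen. Of 19 chaperones and import factors, 10 fell and 1 rose in the knockdown, with HJURP (−0.71), the loader of CENP-A, and CHAF1A (−0.76) and CHAF1B (−0.78), parts of the chromatin assembly factor that deposits new H3 and H4 behind the replication fork. With dBRD9-A 2 rose and 4 fell, including ATRX (−0.20), HIRA (−0.15) and CABIN1 (−0.15), counts near the shares of all genes. Histone genes outside the clusters, most of which encode variants that are deposited independently of replication, fell in 7 of 11 cases in the knockdown and rose in none, with H2AFZ at −0.60, H2AFV at −0.47 and CENPA, the histone of centromeres, at −0.63. With dBRD9-A 4 of 11 rose and 0 fell by edgeR, with H2AFV at 0.32, H3F3B at 0.26 and H2AFX at 0.16. Within the clustered genes, of the 8 tested members with known polyadenylated forms 4 rose and 0 fell in the knockdown, with a median of 0.59, and with dBRD9-A 1 rose and 0 fell, with a median of 0.24. The share over all genes was 22.5% higher and 22.1% lower in the knockdown and 17.7% and 18.2% with dBRD9-A, so 1 of 8 is no result about these members. HIST1H2BN was the one riser outside them. That list was drawn up with earlier results of these data known and lends no support to the direction.

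**Figure D4:**
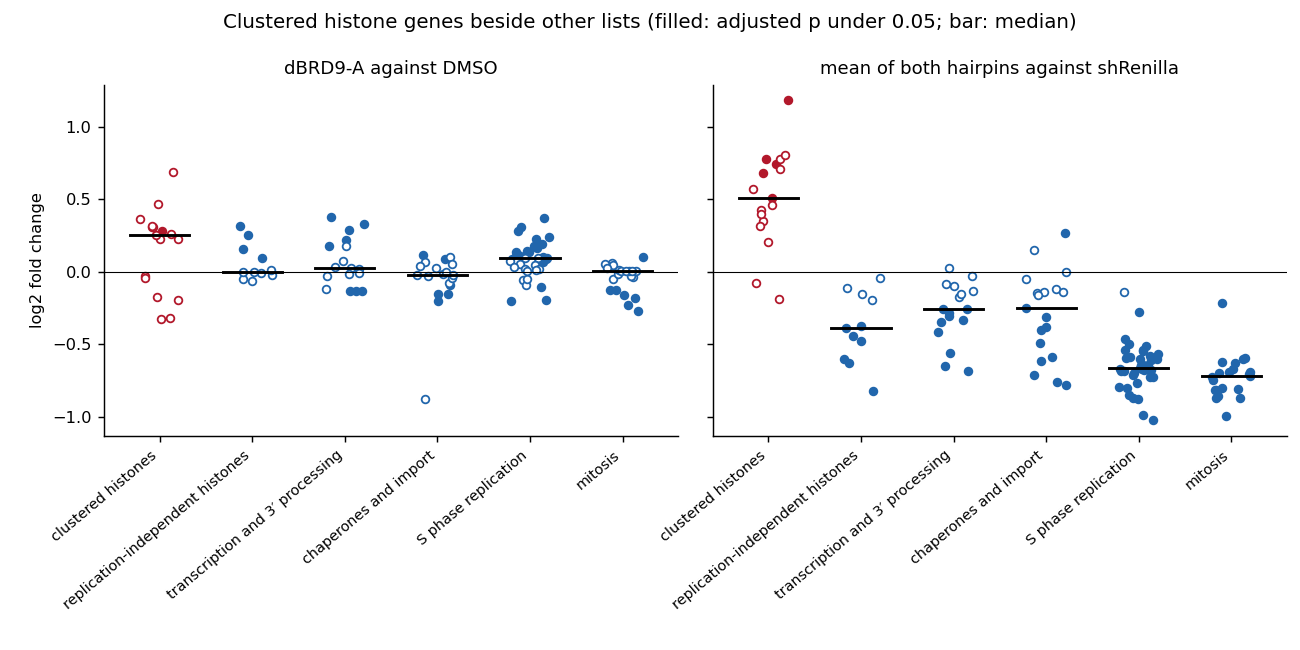
Log2 fold change of each gene tested in 6 lists (clustered histones, replication-independent histones, transcription and 3′ processing, chaperones and import, S phase replication, mitosis), for dBRD9-A against DMSO and for the mean of both fusion hairpins against shRenilla, filled where the edgeR adjusted p is under 0.05 and with a bar at the median. In the knockdown the clustered histones have a median of 0.51 while replication genes have −0.67 and mitosis genes −0.72. The median of the clustered histones is in part set by the filter on low counts, which some low members passed through the hairpin libraries.

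The labels were checked on the targeted transcripts. SSX1 fell by 1.42 ± 0.10 (log2, SE) in the knockdown (edgeR adjusted p = 5.73e-08) and SS18, the other gene of the fusion, by 0.56 (edgeR adjusted p = 4.71e-06). BRD9 mRNA does not check the degrader, which acts on protein, and its log2 fold change was 0.08 (edgeR adjusted p = 0.122). Of the 3 shRenilla libraries replicate 1 stood apart, with a chi-square per degree of freedom of 34.5 and 25.5 against the other 2, beside 1.31 to 9.52 for the other pairs of a group, and it was the lowest of its group in HIST1H1C, HIST1H2AC, HIST1H2BK and HIST2H2BE. Without it 4 members rose in the knockdown and the members' median log2 fold change was 0.35. Markers of other cell types moved with the knockdown. The fibroblast and smooth muscle list summed to 22.3 to 28.4 CPM in shRenilla and 1131 to 1433 CPM in the fusion hairpins, and the epithelial list to 0.0484 to 0.491 and 65.4 to 159 CPM. All 4 tested genes of the former, COL1A1 among them, and all 3 of the latter, KRT8 among them, rose. The leukocyte list lay at 3.10 to 6.66 CPM over all libraries, with 1 tested gene, CD68, that rose, and the 6 endothelial genes were at 0 in shRenilla and summed to at most 1.93 CPM elsewhere, with 1 tested gene, TEK, that rose. With dBRD9-A, 1 of 3 tested fibroblast and smooth muscle genes rose, 0 of 1 leukocyte gene moved by edgeR, and no endothelial or epithelial gene passed the filter on low counts. Their part in the histone results was not tested. In bulk RNA, fewer cells of a type or a phase and less RNA per cell cannot be told apart.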

How the data were processed

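Total RNA of HSSYII cells was made into libraries by the authors with a NEBNext kit (Ultra II per the labels, Ultra per the study's methods), which were sequenced as single-end reads of 75 bases, aligned with STAR to hg19 (GRCh37) and assigned to transcripts with featureCounts, per the labels and the study's methods. Their versions, the strand setting and the treatment of reads with several matches were not given in the labels or methods read. The deposited values are raw counts per transcript for 48104 rows in each of 15 libraries, 18580419 to 27031647 counts in all. In the file of dBRD9-A replicate 2 the symbols of 4535 rows were broken and were restored by transcript identifier, and of 80 rows whose symbol had become a date 78 were restored. Spike-in counts were not used here.

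For each symbol the row with the highest total was kept (2 members had 2 rows). Differences were tested with edgeR 4.0.16 (quasi-likelihood test, robust fit, TMM, filterByExpr with a minimum count of 10) in R 4.3.3, fitted on all genes within the degrader or the knockdown experiment, with Benjamini-Hochberg adjustment over all genes and a threshold of 0.05. The difference between the experiments was taken from a fit of all 15 libraries. The SE of each log2 fold change was its size over the root of the F statistic. The depth sets the precision of low genes, and the common biological CV was 2.78% in the degrader and 8.91% in the knockdown experiment. Alternatives were limma 3.58.1 with voom, DESeq2 1.42.0, other scalings, other filters, summed transcript rows, a replicate block, a joint fit and leaving out each library in turn. Code was tested on simulated data.

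The members named with a value in every library were the 10 with the highest mean CPM, and up to 8 per direction by adjusted p among called members of at least 1 CPM. HIST1H2BG, HIST1H3D and others outside this rule were named after their values were seen. The members, the 11 gene lists and the tests were chosen with earlier results of these data known. Replicate numbers did not pair libraries. Stem-loops were searched on GRCh37 with GENCODE v44 annotation lifted to that build, and promoters were taken from RefSeq on GRCh38.p14. Shared sequence was counted over windows of 75 bases from the start codon to the end of the stem-loop, not over the whole transcript. Intervals and limits from a count of 0 cover counting error only.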

Additional observations from a re-analysis of the deposited data

Results flagged for a closer look

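HIST1H2AC, an H2A gene, had different effects in the experiments by a test of the difference itself. Its log2 fold change was −0.03 ± 0.17 (SE) with dBRD9-A and 0.78 ± 0.17 (SE) in the knockdown, a difference of −0.84 ± 0.27 (SE) in edgeR's fit of all 15 libraries (adjusted p = 0.0204), with all 6 fusion hairpin libraries above the shRenilla libraries and with overlap between dBRD9-A and DMSO. It no longer passed without dBRD9-A replicate 3 (edgeR adjusted p = 0.0557) or without DMSO replicate 1 (edgeR adjusted p = 0.0574), and it was −0.57 without shRenilla replicate 1 (edgeR adjusted p = 0.0279). Time, virus and agent cannot be told apart.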

How the results depend on the processing

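With dBRD9-A the count of members called higher, 1 by edgeR, was 3 with upper quartile factors, 2 with total counts, 2 with no filter on low counts, 0 when all 15 libraries shared 1 fit and 0 when calls also had to pass 1.5-fold. The count called lower, 0, was 1 with no filter. The count whose dBRD9-A effect was lower than the knockdown effect, 1, was 3 with no filter and 2 with transcript rows summed per symbol. Leaving out 1 library gave 1 to 3 members higher with dBRD9-A (3 without DMSO replicate 1, 2 without DMSO replicate 3 or dBRD9-A replicate 2), 4 to 7 higher in the knockdown (4 without shRenilla replicate 1, 7 without shRenilla replicate 2), and for the difference 0 to 3 lower (3 without shRenilla replicate 2) and 0 to 1 higher (1 without DMSO replicate 1). The causes were not tested. In the knockdown HIST1H1C, HIST1H2AC, HIST2H2BE and HIST1H2BN passed in all 19 alternatives, whereas HIST1H2BK also missed the threshold with no filter (edgeR adjusted p = 0.0558). Of 135 alternative values of the 7 results called among named members, 128 kept the call, 7 lost it and 0 reversed.

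Libraries of the same number had correlated deviations of −0.451 to 0.371, so the numbers were not taken to pair them. With the replicate number as a block, 2 members were higher with dBRD9-A, 5 were higher in the knockdown, and 2 had a lower dBRD9-A than knockdown effect. Members under about 1 CPM rest on few counts, and 52 of the 73 passed the filter in neither experiment.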
